A study of Mus musculus with 7 samples.

Results

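The genes described here are named for proteins of the mitochondrial ribosome, and they were chosen by symbol. They are all rows of the count table with a symbol that starts with Mrpl or Mrps followed by a number, without pseudogene symbols. The rule took 76 of the 23420 genes in the table, 47 with Mrpl symbols and 29 with Mrps symbols. RNA was sequenced from microglia, the resident macrophages of the brain, that were sorted from the cortex as CD11b+, CD45low, CX3CR1+ cells when the mice had reached postnatal day 30. The cKO group (4 mice) was Tmem119creErt2+ Srgap2f/f, so that a tamoxifen-dependent recombinase made in microglia from the Tmem119 promoter removes the floxed Srgap2 alleles, and the WT group (3 mice) was Srgap2f/f without the recombinase. Mice of both groups carried the floxed alleles and received tamoxifen, 75 ug per g of body weight at postnatal days 8 and 10. The recombinase was present in the cKO group alone, so its effects and those of losing Srgap2 cannot be told apart.

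Mitochondria make a small set of proteins of their own, core subunits of the respiratory chain and the ATP synthase, on a ribosome that differs from the one in the cytosol. The ribosomal RNAs of the mitochondrial ribosome come from mitochondrial DNA, while all of its proteins are encoded in the nucleus, made in the cytosol and imported. The large subunit (Mrpl) forms peptide bonds and the small subunit (Mrps) reads the messenger RNA. Many members descend from bacterial ribosomal proteins and the others were added in the mitochondrial lineage. In microglia, oxidative metabolism supports surveillance of the tissue, and its use shifts when the cells become activated.

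Srgap2, the targeted gene, had 344, 257, 275 and 212 CPM in the 4 cKO libraries, in replicate order, against 979, 691 and 693 CPM in the 3 WT libraries (CPM is the count scaled to the TMM-adjusted library size). The log2 fold change was −1.53 with SE 0.17 and adjusted p = 0.0053 by the quasi-likelihood test of edgeR. Total counts were 27016173 to 35707304 per library. The 8 microglial markers summed to 45300 to 51300 CPM in cKO, against 51600 to 54600 CPM in WT, without overlap. Whether this bears on the members was not tested. Of these markers, Tmem119 fell, the gene whose promoter drives the recombinase (log2 fold change −0.82, SE 0.15, adjusted p = 0.046). Of the other markers, 3 are given here that were chosen after their values were seen: Csf1r was at 16290 to 19080 CPM in cKO, against 17210 to 18670 CPM in WT, P2ry12 at 2228 to 3235 and 2231 to 3332 CPM, and Cx3cr1 at 6069 to 6846 and 6975 to 7981 CPM, without overlap for the last; its part in the results on the members was not tested. Summed markers of other cell types overlapped between the groups: 65.2 to 129 CPM in cKO, against 70.7 to 108 in WT for border-associated macrophages, 85.0 to 137 and 131 to 137 for astrocytes, 93.4 to 144 and 109 to 120 for the oligodendrocyte lineage, and 58.0 to 77.3 and 72.8 to 81.1 for endothelial and mural cells. Markers of monocytes and neutrophils and of neurons each summed to at most 5.52 CPM in any library, and the endothelial and mural markers Cldn5 and Rgs5 had no count. In bulk RNA, fewer cells of a type and less RNA per cell cannot be told apart.

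No mitochondrial ribosomal protein gene passed the test for a difference between cKO and WT microglia. All 76 passed the filter on low counts, and 0 had an adjusted p under 0.05 in edgeR, against 0.359% of all 11991 genes tested (0.317% higher and 0.0417% lower in cKO). The count was also 0 with DESeq2 and with limma-voom. It was 6 (7.89%) when Xist, which differed between libraries, was a covariate, and that fit called 8.81% of all genes. Fitted fold changes leaned to the higher side: 58 of 76 (76.3%) were above 0, against 48.1% of all genes, and the median log2 fold change was 0.12, against −0.01 over all genes. Fitted log2 fold changes reached from −0.32 to 0.52, and the middle of the distribution, from the lower to the upper quartile, lay between 0.01 and 0.25. At an unadjusted p under 0.05, 10 members (13.2%) were higher and 0 were lower in cKO, against 9.65% higher and 6.87% lower of all genes. DESeq2 gave 10 and limma-voom 8 such members, all higher. Some fits gave fewer, or some lower: 7 higher and 2 lower with sample quality weights, and 6 and 1 with the replicate number as a block. Others gave more, such as 12 and 0 with a block for runs of mouse numbers, up to 21 and 0 with the Xist covariate. The shares of all genes at an unadjusted p under 0.05 were not taken in these fits. The count of 10 changed when 1 library was left out. It was 4 higher without cKO replicate 2, 3 or 4, 5 without WT replicate 2 and 6 without WT replicate 3. Without WT replicate 1 it was 3 higher and 2 lower, and without cKO replicate 1 it was 13 higher and 1 lower. The number of all genes past the threshold also moved in these fits, to between 4 and 142 from 43. Weight of a single library and loss of power with fewer libraries cannot be told apart in these counts. In 6 members (7.89%) every cKO library was above every WT library, and the share over all genes was 8.86%. The reverse held for 0 members and for 7.2% of all genes. The share of members that stood apart on the higher side was thus near that of all genes, and on the lower side it was 0.

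Genes with Mrpl and with Mrps symbols gave similar values. The median log2 fold change was 0.13 for the 47 Mrpl genes, with 38 above 0, and 0.11 for the 29 Mrps genes, with 20 above 0. This split is by symbol: Mrps18a and Mrps30 sit in the large subunit, so that 49 members are placed there and 27 in the small one. The count of 27 includes Mrps36, whose protein has since been assigned elsewhere, as given below. No test was made between the 2 sets of symbols. The SE of a single member ranged from 0.10 to 0.30 with a median of 0.16.

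**Figure D1:**
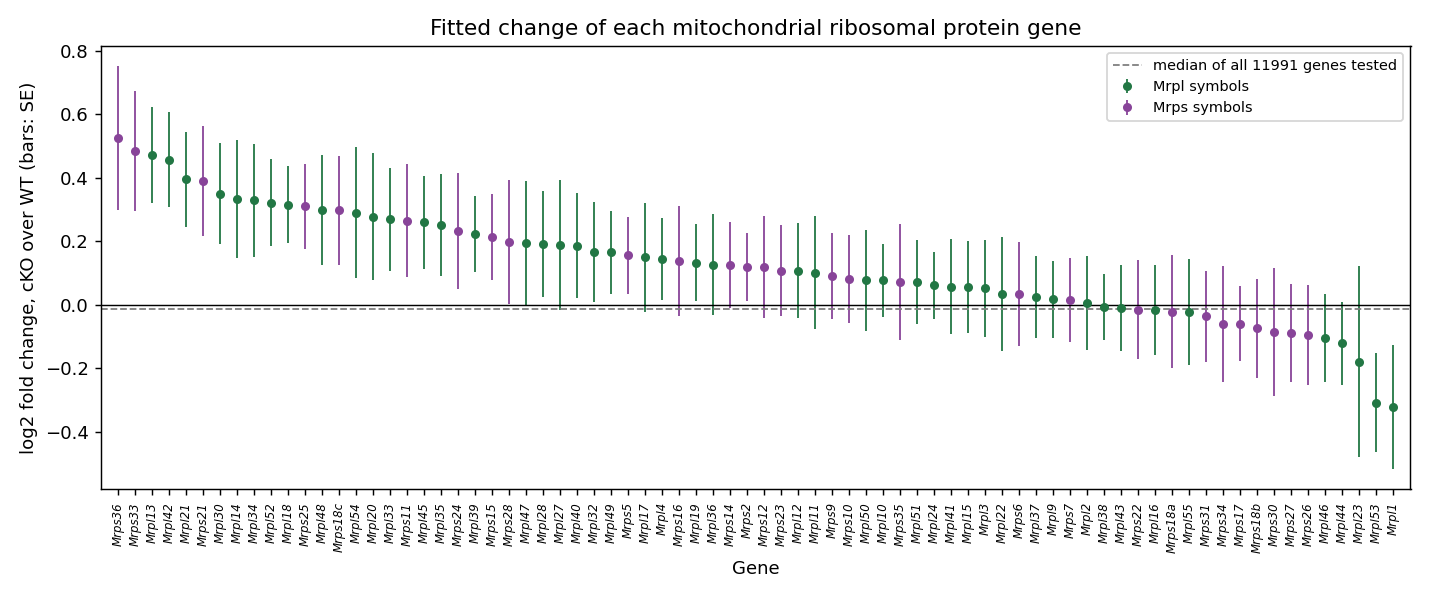
Fitted log2 fold change (cKO, n = 4, over WT, n = 3) of each of the 76 genes, sorted, with bars of 1 SE; colours mark Mrpl and Mrps symbols and the dashed line is the median of all genes tested. Most points lie above 0, from −0.32 for Mrpl1 to 0.52 for Mrps36, and Mrpl and Mrps genes are mixed along the order.

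In what follows, a value in parentheses with its SE is a fitted log2 fold change of cKO over WT. Among large subunit genes, Mrpl13 and Mrpl42 had the smallest p of all members. Mrpl13, a protein with a bacterial homologue, was at 22.6, 25.9, 20.2 and 28.01 CPM in the cKO libraries (replicates 1 to 4, the order used throughout) against 14.9, 17.9 and 19.4 CPM in the WT libraries (replicates 1 to 3). The groups did not overlap, and the means were 24.2 ± 3.45 CPM (SD, n = 4) and 17.4 ± 2.29 CPM (SD, n = 3; log2 fold change 0.47, SE 0.15, adjusted p = 0.16). Mrpl42, which has no bacterial counterpart, was at 21.1, 20.2, 22.8 and 25.7 CPM in cKO, against 15.0, 14.4 and 19.6 CPM in WT. The highest WT library came within 1 CPM of the lowest cKO library (fitted log2 change 0.46, SE 0.15, adjusted p = 0.17).

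Mrpl18, of the family that binds the small RNA of the central protuberance in bacterial ribosomes, was even in cKO, at 24.6, 22.5, 23.9 and 24.3 CPM, and lay at 17.1, 20.8 and 19.5 CPM in WT. Its groups did not overlap (fitted log2 change 0.31, SE 0.12, adjusted p = 0.22). Mrpl21 was at 12.2, 14.4, 14.9 and 14.0 CPM in cKO, against 9.83, 12.2 and 9.63 CPM in WT, where WT replicate 2 was level with cKO replicate 1 (0.40, SE 0.15, adjusted p = 0.21). Mrpl39, a protein related to threonyl-tRNA synthetases, was at 25.9, 24.1, 24.3 and 26.5 CPM in cKO, against 21.1, 20.03 and 23.7 CPM in WT. Those groups also did not overlap, but the difference was small (0.22, SE 0.12, adjusted p = 0.38). Mrpl52 was at 22.5 CPM in cKO replicate 1, inside the WT range of 21.5 to 22.8 CPM, and at 27.6 to 31.6 CPM in the other cKO libraries (0.32, SE 0.14, adjusted p = 0.27). Mrpl30 was at 17.6 to 25.5 CPM in cKO, against 14.5 to 18.5 CPM in WT (0.35, SE 0.16, adjusted p = 0.30).

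Of the genes with Mrps symbols, Mrps36 and Mrps33 had the highest fitted fold changes of all members. Mrps36 was at 5.06, 5.72, 5.21 and 7.51 CPM in cKO, against 2.92, 4.41 and 4.88 CPM in WT. Its protein has since been assigned to the oxoglutarate dehydrogenase complex rather than to the ribosome. The groups did not overlap, but cKO replicate 4 stood above and WT replicate 1 below the rest (fitted log2 change 0.52, SE 0.23, adjusted p = 0.27). Mrps33, a small protein of the head of the subunit, was at 8.42, 8.49, 9.17 and 11.3 CPM in cKO, against 5.19, 6.98 and 7.84 CPM in WT, again without overlap (0.48, SE 0.19, adjusted p = 0.23). Mrps21, homologous to a bacterial protein, was at 22.3 to 35.98 CPM in cKO, against 18.1 to 25.1 CPM in WT (0.39, SE 0.17, adjusted p = 0.29). Mrps25 was at 17.9 CPM in cKO replicate 1, below the 18.5 CPM of WT replicate 1, and at 21.4 to 23.2 CPM in the other cKO libraries (0.31, SE 0.13, adjusted p = 0.28).

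**Figure D2:**
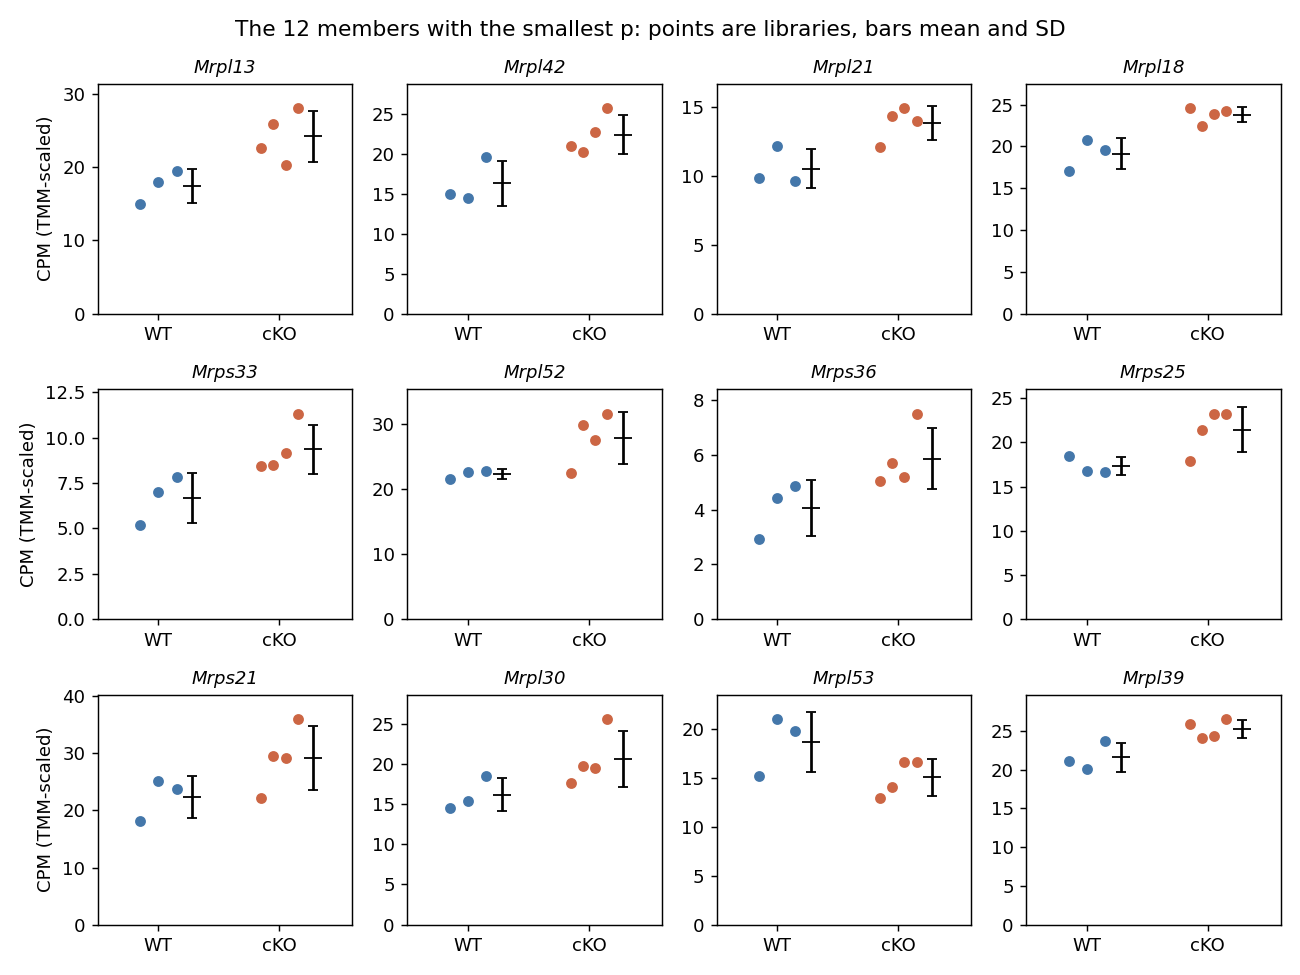
Level in CPM (TMM-scaled, axis from 0) of the 12 members with the smallest p, in WT (blue, n = 3) and cKO (orange, n = 4); points are libraries and bars are mean and SD. In 6 panels (Mrpl13, Mrpl42, Mrpl18, Mrps33, Mrps36 and Mrpl39) every cKO point lies above every WT point, and Mrpl53 is the panel with the lower cKO mean.

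The genes for proteins of the main working parts of the ribosome had mean messenger levels that differed little between the groups. The stalk that recruits translation factors is built on Mrpl10 and Mrpl11 and carries copies of Mrpl12. Mrpl12 was at 30.2, 41.3, 40.4 and 48.3 CPM in cKO, against 34.1, 38.2 and 39.4 CPM in WT, so that the WT libraries lay inside the cKO range (fitted log2 change 0.11, SE 0.15, adjusted p = 0.78). Mrpl10 was at 53.3 ± 6.04 CPM in cKO, against 50.6 ± 1.20 CPM in WT (0.08, SE 0.12), and Mrpl11 at 27.3 ± 4.98 and 25.5 ± 5.40 CPM (0.10, SE 0.18). In the small subunit, Mrps12, a protein of the decoding centre, was at 19.1 ± 3.19 and 17.6 ± 2.48 CPM (0.12, SE 0.16). Mrps2 was at 40.9 ± 3.03 and 37.7 ± 1.13 CPM (0.12, SE 0.11), Mrps5, near the entry of the messenger, at 20.7 ± 1.23 and 18.6 ± 1.16 CPM (0.16, SE 0.12), and Mrps7, of the head, at 41.5 ± 5.97 and 41.1 ± 3.62 CPM (0.01, SE 0.13). Adjusted p for these members was between 0.57 and 0.97.

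Mammals have a trio of homologues of a single bacterial protein: Mrps18a, which sits in the large subunit, and Mrps18b and Mrps18c, which sit in the small one. Mrps18c was at 16.9, 17.9, 15.9 and 24.6 CPM in cKO, against 13.8, 14.5 and 17.7 CPM in WT, with WT replicate 3 inside the cKO range (fitted log2 change 0.30, SE 0.17, adjusted p = 0.42). Mrps18a (−0.02, SE 0.18) and Mrps18b (−0.07, SE 0.16) were close to 0. Mrps30, which despite its symbol is also part of the large subunit, varied among the WT libraries, at 22.6, 43.9 and 38.1 CPM, and these values enclosed those of cKO, 27.5 to 38.9 CPM (−0.09, SE 0.20).

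Only 18 members had a fitted fold change below 0, and the lowest were Mrpl1, Mrpl53 and Mrpl23. Mrpl1, of the mobile stalk beside the exit site of transfer RNA, was at 9.25, 6.13, 7.28 and 6.83 CPM in cKO, against 7.20, 9.49 and 10.9 CPM in WT. Here cKO replicate 1 lay with the upper WT libraries and WT replicate 1 with the lower cKO libraries (fitted log2 change −0.32, SE 0.20, adjusted p = 0.44). Within the 4 libraries with Xist Mrpl1 fell (−0.67, SE 0.19, adjusted p = 0.049), in a fit that called 6.65% of all genes and 2.63% of members. Within the 3 others, with 1 WT library, the fitted value of Mrpl1 had the opposite sign (0.22, SE 0.27). Mrpl53 was at 12.9, 14.1, 16.6 and 16.6 CPM in cKO, against 15.2, 21.0 and 19.7 CPM in WT, with WT replicate 1 inside the cKO range (−0.31, SE 0.16, adjusted p = 0.35). Mrpl23, of the exit of the peptide tunnel, was the scarcest member, with 28 to 58 counts per library, 0.97 to 1.66 CPM in cKO, against 1.06 to 1.71 CPM in WT (−0.18, SE 0.30).

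Most proteins of a ribosome are present in equal numbers, and their messenger levels were less even. Per kilobase of transcript, over all libraries, the median member was at 17.7 CPM per kb and the range was 1.98 to 60.9 CPM per kb. The highest were Mrpl52 (60.9), Mrps21 (53.8), Mrpl43 (47.2), Mrps34 (46.9) and Mrpl2 (45.2 CPM per kb), and the lowest Mrpl23 (1.98), Mrpl1 (2.29) and Mrpl47 (2.38 CPM per kb). The lengths are those of 1 transcript per gene in GENCODE M21, and a gene for which microglia use a shorter transcript would be placed too low. The 3 most abundant outside the 12 with the smallest p had fold changes near 0: Mrpl43 had a log2 fold change of −0.01 (SE 0.14), Mrps34 of −0.06 (SE 0.18) and Mrpl2 of 0.00 (SE 0.15; fitted value 0.0046).

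The lean to the higher side was smaller when cKO replicate 4 or WT replicate 1 was left out. The 76 genes averaged 4.27, 4.46, 4.41 and 4.65 log2 CPM across the cKO libraries, against 4.12, 4.40 and 4.45 log2 CPM across the WT libraries. The group means were 4.45 ± 0.16 (SD, n = 4) and 4.32 ± 0.18 (SD, n = 3), and the groups overlapped: cKO replicates 1 and 3 lay inside the WT range and cKO replicate 2 just above it. cKO replicate 4 held the highest value of 55 members (72.4%) and of 22.7% of all genes, and WT replicate 1 held the lowest value of 48 members (63.2%) and of 18.4% of all genes. Reads of the 76 genes made up 0.208% of all counts in cKO replicate 4, 0.159% in WT replicate 1 and 0.179% to 0.195% in the other libraries. Without cKO replicate 4 the median log2 fold change was 0.04 with 48 members above 0, and without WT replicate 1 it was 0.03 with 45 above 0. Without any other single library it was 0.11 to 0.17. Over all libraries, the median was 0.19 (67 above 0) with the Xist covariate and 0.16 (66) with the block for mouse-number runs. It was 0.05 (49 above 0) with the replicate block and 0.04 (44) with sample quality weights.

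Library composition differed as well. Over the genes of 1 library, which do not count as independent, ranks of the deviation from the mean level were correlated with ranks of transcript length at −0.39 in cKO replicate 4 and 0.40 in WT replicate 1, the lowest and the highest of the libraries, and with GC content the highest value, 0.44, was also in cKO replicate 4 and the lowest, −0.52, in cKO replicate 1. The members' transcripts are short: their median length was 1284 bases, against 2944.5 over all genes tested, while their median GC content was 50.8% against 50.4%. Members with transcripts under 1000 bases (25) had a median log2 fold change of 0.21, against 0.16 for all genes of that length. From 1000 to 2000 bases (28) it was 0.07 against 0.03, and over 2000 bases (23) 0.12 against −0.03. When each library was given offsets by length and GC content, the median of the members was 0.08, with 54 above 0, and 1 member passed, Mrpl13 (fitted log2 change 0.42, SE 0.10, adjusted p = 0.041), a share of 1.32%, where 5.47% of all genes passed, 4.5% higher and 0.967% lower. The offsets were fitted to each library without regard to group, so they also take up any group difference that follows length or GC content. The part of length, GC content or other properties of the libraries in these values was not tested.

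**Figure D3:**
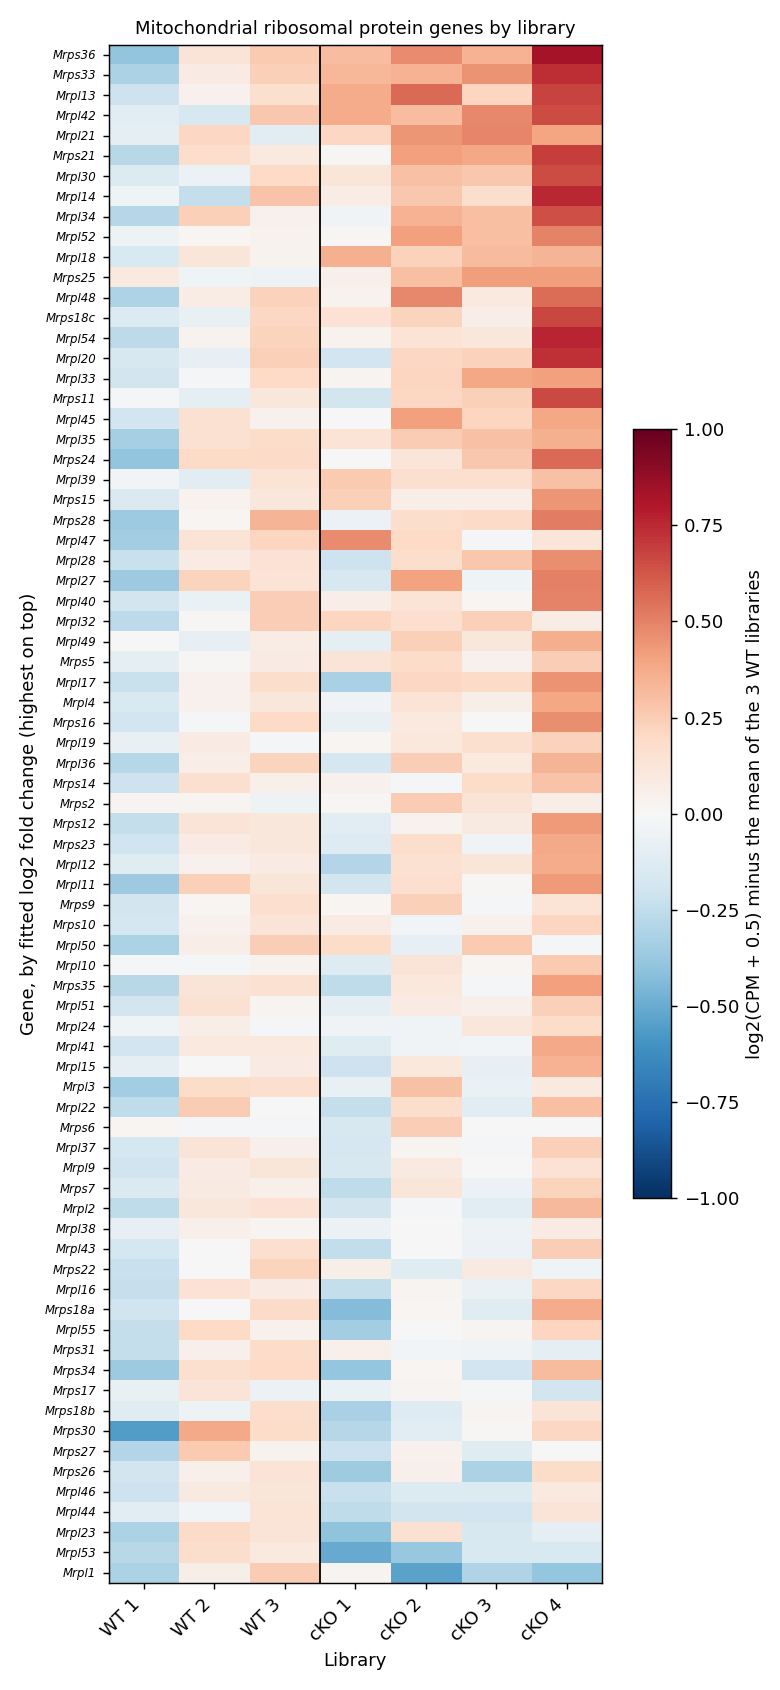
Each row is 1 of the 76 genes, ordered by fitted log2 fold change, and each column a library; colour is log2(CPM + 0.5) minus the mean of the 3 WT libraries. The column of cKO replicate 4 is red in most rows and that of WT replicate 1 blue in most rows, and cKO replicate 1 is blue in much of the lower part.

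Libraries also differed in Xist, which is transcribed from the inactive X chromosome and was above 10 CPM in cKO replicates 2 and 4 and WT replicates 2 and 3. Within these 4 libraries the members' median log2 fold change was 0.13 with 57 above 0, and within the other 3 (2 cKO and 1 WT) it was 0.21 with 68 above 0. Ddx3y, a gene of the Y chromosome, stayed at or below 0.18 CPM throughout the first set, whereas the second set had 27.2 to 30.4 CPM. By these genes the first set came from females and the second from males. Both groups thus mixed the sexes, and the Xist covariate largely follows sex. The 1 WT library of the second set, and so the only male WT library, is WT replicate 1. It held the lowest value of 48 members, so the values of the second set rest on that library and do not add support to the first set. In both sets 52 members were above 0 and 3 below. Mrpl13 gave 0.51 and 0.54 in the 2 sets, Mrpl42 0.42 and 0.56, and Mrps33 0.40 and 0.78. With log2 CPM of Xist as a covariate, 6 members (7.89%) rose and 0 fell, where 6.21% of all genes rose and 2.59% fell, 8.81% in all. They were Mrpl13 (fitted log2 change 0.58, SE 0.12, adjusted p = 0.0089), Mrps21 (0.50, adjusted p = 0.030), Mrps36 (0.68, adjusted p = 0.038), Mrps33 (0.58, adjusted p = 0.044), Mrpl42 (0.49, adjusted p = 0.046) and Mrpl48 (0.44, adjusted p = 0.025). Mrpl48 is named after its values were seen. It was at 27.1, 36.9, 28.2 and 39.0 CPM in cKO, against 21.2, 27.7 and 31.1 CPM in WT, and it lies over part of Rab6a, so its reads may include those of that gene. With the Xist covariate and the offsets for GC content and length together, Mrpl13 (0.46, adjusted p = 0.015) and Mrpl48 (0.45, adjusted p = 0.023) rose and Mrpl53 fell (−0.50, adjusted p = 0.023). That is 3.95% of members, against 11.7% of all genes, 8.49% higher and 3.22% lower.

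Some short motifs were more frequent at the starts of these genes than over all protein-coding genes. RefSeq promoter sequences (GRCm38.p6, 250 bases before to 50 after the start) were matched for 67 members. Mrpl4, Mrpl13, Mrpl15, Mrpl19, Mrpl38, Mrpl54, Mrps28, Mrps34 and Mrps35 were not matched. Within these 300 bases, the letters CCGGAAG, which the ETS factor GABP binds, were found on either strand in 23 members (34.3%), against 11.9% of 17492 protein-coding genes. The palindromic site of nuclear respiratory factor 1, with any base in the sixth place (2 of the 3 matches in Mrpl45 are in capitals in the stretch printed for it), was in 12 (17.9%, against 6.6%), and AAGATGGC, part of the YY1 site, was in 12 (17.9%, against 3.22%). At least 1 of these first 2 motifs was in 32 members (47.8%, against 17.2%). The last letters of CCGGAAG can be the first of AAGATGGC, and this joined form was in 0 of the 67 members. A match is not a measured site, and the 17492 genes compared were not limited to those expressed in microglia or matched for GC content. Median fold changes with and without them were close and were not tested: the median was 0.16 with the nuclear respiratory factor 1 site and 0.11 without, 0.12 and 0.11 for CCGGAAG, and 0.14 and 0.11 for AAGATGGC. Of the genes that encode these factors, Yy1 was at 73.0 ± 10.4 CPM in cKO, against 58.4 ± 5.14 CPM in WT (0.32, SE 0.13, adjusted p = 0.25).

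Many members also start back to back with another gene. In 23 of 67 (34.3%) a protein-coding gene started within 1000 bases on the opposite strand and ran away from the member, against 8.48% of 17492 protein-coding genes. One pair joins a large and a small subunit gene: the starts of Mrpl46 and Mrps11 lie 42 bases apart. Other members start back to back with a gene of mitochondrial gene expression, Mrpl43 with Twnk (listed as Peo1), the mitochondrial DNA helicase, Mrps27 with Ptcd2, a mitochondrial RNA-binding protein, and Mrps12 with Sars2, the mitochondrial seryl-tRNA synthetase. The stretches below lie upstream of the first listed start and outside GENCODE M21 exons, 5′ to 3′ on the strand of the member. Those of Mrps11, Mrpl43 and Mrps27 hold all or most of the bases between the back-to-back starts, and those of Mrpl52 and Mrpl45 show members with the highest level per kb and with repeated matches. Capitals mark CCGGAAG or its reverse complement in Mrpl43, Mrps27 and Mrpl52, and the nuclear respiratory factor 1 site in Mrpl45.
Mrps11 (with Mrpl46; chr7:78783090-78783118, + strand): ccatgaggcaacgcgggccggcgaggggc
Mrpl43 (with Twnk; chr19:45006443-45006557, − strand): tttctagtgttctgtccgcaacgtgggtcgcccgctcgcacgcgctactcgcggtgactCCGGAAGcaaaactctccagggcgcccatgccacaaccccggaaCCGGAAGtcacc
Mrps27 (with Ptcd2; chr13:99344706-99344785, + strand): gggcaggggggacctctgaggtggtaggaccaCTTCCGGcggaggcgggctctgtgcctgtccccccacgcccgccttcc
Mrpl52 (chr14:54426789-54426908, + strand): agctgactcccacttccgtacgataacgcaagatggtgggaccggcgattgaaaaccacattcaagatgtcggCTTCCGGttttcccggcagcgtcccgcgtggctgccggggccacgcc
Mrpl45 (chr11:97315596-97315715, + strand): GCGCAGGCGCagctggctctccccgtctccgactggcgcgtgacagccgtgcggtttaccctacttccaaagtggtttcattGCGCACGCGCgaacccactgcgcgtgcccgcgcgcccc

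Genes that start back to back did not share a fitted direction more often than not. Of 22 members whose partner was tested (Mrpl46 and Mrps11 count as partners of each other), 10 had the same sign of fold change as the partner, the median was 0.14 for the members and −0.04 for the partners, and 0 partners passed. The pair Mrps11 and Mrpl46 differed in sign: Mrps11 was at 20.7, 27.3, 27.96 and 37.7 CPM in cKO, against 23.3, 22.1 and 25.6 CPM in WT (fitted log2 change 0.26, SE 0.18), and Mrpl46 at 17.5, 18.6, 18.6 and 21.9 CPM in cKO, against 17.6, 21.9 and 22.3 CPM in WT (−0.11, SE 0.14). Twnk (Peo1) had the smallest adjusted p of these partners and did not overlap between the groups, at 16.6, 18.5, 15.8 and 20.8 CPM in cKO, against 24.3, 30.9 and 26.98 CPM in WT (−0.61, SE 0.14, adjusted p = 0.097), while Mrpl43 on the other side of the shared stretch differed by −0.01. Mrps12 (0.12) and Sars2 (−0.09, SE 0.18), and Mrps27 (−0.09) and Ptcd2 (0.10, SE 0.13), were within 1 SE of 0. In all, 21 of 67 members overlap another annotated gene, among them Mrpl43 with Twnk, Mrpl18 with Tcp1, Mrpl21 with Ighmbp2, Mrps25 with Nr2c2 and Mrpl53 with Ccdc142, and how reads in the shared part were counted is not given.

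Ribosomal proteins listed under other symbols gave a similar median. These were Dap3, Chchd1, Ptcd3, Aurkaip1, Gadd45gip1, Mrpl57 (as Mrp63) and Mrpl58 (as Ict1), a release factor built into the large subunit. Their median log2 fold change was 0.09, with 6 of 7 above 0 and 0 past the threshold. The highest was Chchd1, at 14.2 ± 1.98 CPM in cKO, against 11.4 ± 2.84 CPM in WT (0.32, SE 0.19, adjusted p = 0.43). Ict1 was at 30.4 ± 5.03 and 26.9 ± 2.63 CPM (0.18, SE 0.15), Ptcd3 at 18.3 ± 2.64 and 17.1 ± 1.85 CPM (0.10, SE 0.15), and Mrp63 at 28.5 ± 4.87 and 26.8 ± 2.53 CPM (0.09, SE 0.15).

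The factors that build and serve the ribosome had 0 genes past the threshold as well, and their medians were lower than that of its proteins. In the list of assembly and ribosomal RNA modification factors, 21 of 27 were below 0, with a median of −0.12. Their median transcript length was 1894 bases, against 1284 for the members. For the translation factors, aminoacyl-tRNA synthetases and mitochondrial DNA genes given below it was 2623, 2868 and 2707 bases. The part of length in these medians was not tested. Mettl17, needed for assembly of the small subunit, was at 22.3, 20.4, 21.0 and 22.9 CPM in cKO, against 28.1, 27.2 and 26.3 CPM in WT, without overlap (−0.33, SE 0.11, adjusted p = 0.18). Ddx28 (−0.37, SE 0.16, adjusted p = 0.26), an RNA helicase, and Mrm1 (−0.38, SE 0.16, adjusted p = 0.28), a ribosomal RNA methyltransferase, were also lower in mean, while Grsf1, of the mitochondrial RNA granules, was higher in mean (0.24, SE 0.11, adjusted p = 0.30).

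Translation factors had 8 of 15 above 0 and a median of 0.04. Lrpprc, which stabilises mitochondrial messenger RNA, was at 79.7 ± 7.12 CPM in cKO, against 64.8 ± 5.60 CPM in WT (0.30, SE 0.11, adjusted p = 0.22), and Mtres1 (as 1700021F05Rik) at 10.8 ± 0.87 and 8.60 ± 1.28 CPM (0.33, SE 0.16, adjusted p = 0.32). The initiation factor Mtif3 had a log2 fold change of −0.22 (SE 0.13). Mitochondrial aminoacyl-tRNA synthetases had 14 of 20 below 0 and a median of −0.06. Pars2 was the gene with the smallest p (−0.44, SE 0.17, adjusted p = 0.22), followed by Hars2 (−0.20, SE 0.11), Mars2 (−0.31, SE 0.18) and Nars2 (0.29, SE 0.18).

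Genes of mitochondrial DNA transcription and maintenance had 13 of 19 below 0 and a median of −0.10. Besides Twnk these included Polg2, a subunit of the DNA polymerase (−0.38, SE 0.15, adjusted p = 0.24), and Polrmt, the RNA polymerase (−0.31, SE 0.15, adjusted p = 0.32), whereas Hsd17b10, also a part of the RNase that processes transfer RNA, was higher in mean (0.46, SE 0.15, adjusted p = 0.17). Import genes leaned the other way, with 25 of 29 above 0 and a median of 0.10. The small outer membrane subunits Tomm6 (0.52, SE 0.15, adjusted p = 0.14) and Tomm7 (0.51, SE 0.19, adjusted p = 0.20) had the smallest p there, before Tomm22 (0.37, SE 0.15, adjusted p = 0.25) and Timm17b (0.33, SE 0.17, adjusted p = 0.35). Nuclear regulators had a median of −0.03 over 9 genes, with log2 fold changes of 0.40 for Myc (SE 0.15, adjusted p = 0.21), −0.11 for Esrra (SE 0.14) and −0.23 for Ppargc1b (SE 0.30).

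Set beside the respiratory chain, whose core they translate, and the cytosolic ribosome, the mitochondrial ribosomal proteins had the smaller median. The 78 oxidative phosphorylation genes had a median log2 fold change of 0.37, and 57.7% were higher at an unadjusted p under 0.05. The 79 cytosolic ribosomal protein genes had a median of 0.42 and 83.5%, against 0.12 and 13.2% for the 76 members and 9.65% of all genes. Every cKO library was above every WT library in 25 (32.1%) and 52 (65.8%) of these genes, against 6 (7.89%) of the members and 8.86% of all genes. In either list 0 genes had an adjusted p under 0.05. The transcripts of both lists are shorter, with median lengths of 870 and 878 bases, against 1284 for the members. With the offsets by length and GC content the medians were 0.26 and 0.33, against 0.08 for the members. The difference between the lists was not tested. In cKO replicate 4 the mean log2 CPM was 7.42 for cytosolic and 5.88 for oxidative phosphorylation genes, the highest of the libraries for each, as for the members, and in WT replicate 1 it was 6.53 and 5.03, the lowest.

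**Figure D4:**
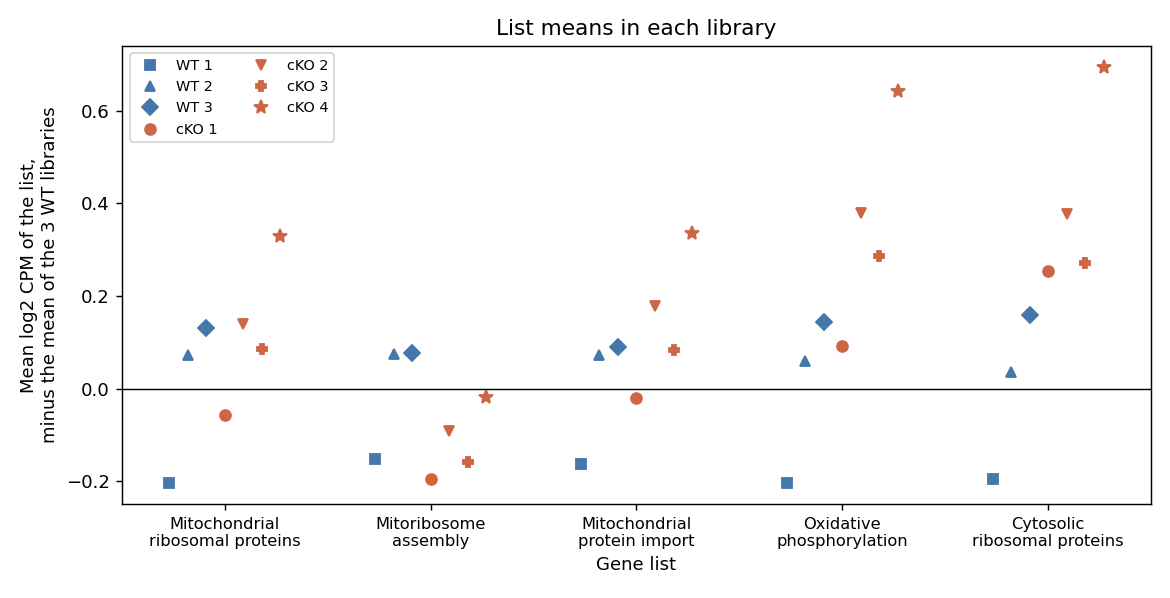
Mean log2 CPM of each gene list in each library, minus the mean of the 3 WT libraries; blue symbols are WT and orange symbols cKO, with 1 symbol shape per replicate. cKO replicate 4 (star) is highest in the lists of mitochondrial ribosomal, import, oxidative phosphorylation and cytosolic ribosomal genes, the WT and cKO points of the mitochondrial ribosomal proteins overlap, and the cKO points of the cytosolic ribosomal proteins all lie above the WT points.

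**Figure D5:**
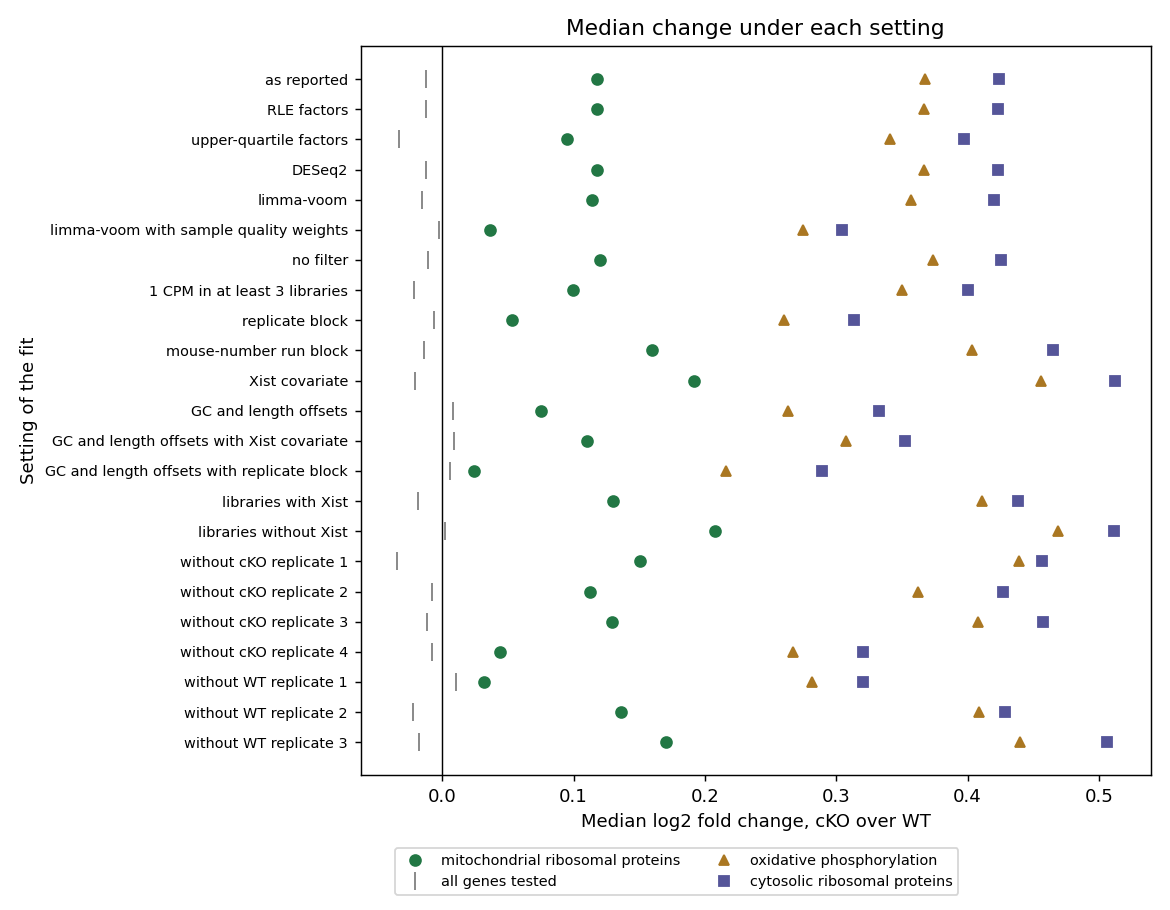
Median log2 fold change (x axis) of 3 gene lists and of all genes tested under each way of fitting the data (rows). The median of the mitochondrial ribosomal proteins lies between 0.02 and 0.21, left of both other lists in every row.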

How the data were processed

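The authors deposited 1 table of whole-number counts per gene symbol, not normalized, for 7 libraries. DRAGEN and GRCm39 are named in the submitters' processing notes. Which annotation, counting rule and strand setting were used is not given in the sources used here, so reads of overlapping genes and of near-identical copies have an uncertain assignment. Libraries came from separately numbered mice, per the labels. No libraries of 1 group were duplicates: chi-square over degrees of freedom was 18.8 to 98.3 for the pairs.

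Genes were kept with filterByExpr (least count 10, least total 15) of edgeR 4.0.16 (limma 3.58.1, R 4.3.3), which left 11991 of 23420; 7033 had no count. TMM factors and the robust quasi-likelihood F test of edgeR compared cKO with WT without covariates, with Benjamini-Hochberg adjustment over the whole set of tested genes (threshold 0.05). SE is the size of the log2 fold change divided by the square root of F; log2 CPM used a prior count of 2. The procedure was tested on simulated data. Alternatives were other factors and filters, DESeq2 1.42.0, limma-voom, blocks, the Xist covariate, GC and length offsets (loess, span 0.3; values for 99.3% of genes) and leaving out libraries.

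The members and lists were chosen with earlier results of these data known. Members named are the 12 with the smallest p, the extremes of fold change and of level per kb, and members fixed by role; of each list, up to 4 with the smallest p. Results for some of these genes are not reported here. Of 234 list entries, 232 were matched, 16 by synonym.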

Additional observations from a re-analysis of the deposited data

How the results depend on the processing

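The number of all genes past the threshold, 43, moved widely: 538 with DESeq2, 904 with sample quality weights, 89 with no filter, 170 with a block for runs of mouse numbers, 1056 with the Xist covariate, 656 with GC and length offsets, 1404 with both, 798 and 452 within the libraries with and without Xist, and 4 to 142 when 1 library was left out. With the replicate number as a block it was 288, and 669 with the block and the offsets together. Deviations of same-numbered libraries correlated at 0.39, 0.07 and −0.17, and number 1 alone correlated best with its own partner. These correlations rest on few libraries, so they cannot decide whether the numbers pair the libraries. Mitochondrial ribosomal protein genes past the threshold stayed at 0 in most fits and without any 1 library. They were 6 with the Xist covariate, 1 with the offsets, 3 with both and 2 within the libraries with Xist (Mrpl13 higher and Mrpl1 lower). In that order, 7.89%, 1.32%, 3.95% and 2.63% of members passed, where 8.81%, 5.47%, 11.7% and 6.65% of all genes passed. The members' median log2 fold change was above 0 under every alternative run, from 0.02 (offsets with the replicate block) to 0.21 (libraries without Xist), and from 0.03 to 0.17 without 1 library.

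Some single genes changed sign, most of them near 0, and the cause was not tested. Mrpl1 (−0.32 as reported), Mrps18c (0.30), Mrpl47 (0.19) and Mrpl23 (−0.18) were not near 0, and Mrpl1 passed at −0.67 within libraries with Xist. Within libraries without Xist, Mrpl23 was 0.076, Mrpl1 0.22, Mrpl43 0.045, Mrps34 0.10, Mrpl10 −0.011 and Mrps30 0.46; within those with Xist, Mrpl43 was 0.025, Mrpl47 −0.031 and Mrps18a 0.087. With the Xist covariate, Mrpl43 was 0.070, Mrps34 0.093, Mrps18a 0.089 and Mrps30 0.074 (0.10 with the offsets added). With the mouse-number block, Mrpl43 was 0.032, Mrps34 0.017, Mrps18a 0.030 and Mrps30 0.039. With sample quality weights, Mrpl2 was −0.14, Mrpl11 −0.065, Mrps7 −0.067 and Mrps12 −0.00033. With the replicate block, Mrpl2 was −0.11, Mrpl11 −0.0034, Mrpl12 −0.0060, Mrps7 −0.065 and Mrp63 −0.027; with block and offsets, Mrpl2 was −0.036, Mrps18c −0.055 and Mrp63 −0.10. Upper-quartile factors gave −0.021 for Mrpl2 and −0.010 for Mrps7, the 1 CPM filter −0.016 and −0.0053, and the offsets alone −0.015 for Mrpl2. Without 1 library, the ranges were −0.11 to 0.079 (Mrpl43), −0.22 to 0.040 (Mrps34), −0.12 to 0.076 (Mrpl2), −0.061 to 0.21 (Mrpl11), −0.065 to 0.081 (Mrps7), −0.0050 to 0.17 (Mrps12), −0.18 to 0.082 (Mrps18a), −0.15 to 0.023 (Mrps18b), −0.32 to 0.10 (Mrps30) and −0.031 to 0.15 (Mrp63). A member's SE, from 0.10 to 0.30, limits what these 7 libraries can show.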
